A study of Mus musculus with 12 samples.

Results

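The response of control thymocytes to engagement of the T-cell receptor was measured in 4 mice, through 8 of the 12 arrays of the series. The 2 *Med23flox/flox;Lck-Cre* mice of the series, called MED23 null, were used in estimating the spread, and their response is not reported here. The controls were 2 *Med23+/+;Lck-Cre* mice, which carry a *Cre* transgene driven by an *Lck* promoter that acts from the DN4 stage of T-cell development, and intact *Med23*, and 2 *Med23flox/flox* mice, in which LoxP sites flank exons 5 to 7 of *Med23* and no Cre is present. All were females of 6 to 7 weeks from a C57Bl/6 x 129Sv (F1) background, with the gene for the MED23 subunit of Mediator undeleted. Total thymocytes, which are mostly CD4 CD8 double positive (DP) cells, had a rest of 4 h before 3 h in culture, either unstimulated (mock) or on αCD3 antibody bound to the plate. The mice are named *Lck-Cre* 1 and 2 and *Med23flox/flox* 1 and 2, and runs of 4 values are given in that order. Members of the comparison were the 8628 probe sets, of 12422 that are not array controls, with a mean signal of at least 100 in either treatment. They stand for 6332 genes, and a gene with several probe sets is given by the brightest one over the control arrays.

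αCD3 antibody binds the CD3 chains of the T-cell receptor (TCR) complex and so stands in for ligand. The proximal kinases LCK and ZAP70 then start calcium flux, which activates NFAT through the phosphatase calcineurin, and RAS and protein kinase C signalling, which activates the MAPK/ERK pathway and NF-κB. The first genes to respond are the immediate early transcription factors, followed by feedback inhibitors, cytokines and surface receptors. In DP thymocytes the strength of this signal guides positive and negative selection, and cells that pass it change their coreceptors, homing receptors and survival genes.

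A signal is a linear intensity per probe set. Each difference was taken within a mouse as log2(signal + 50) after αCD3 minus log2(signal + 50) after mock, which understates the change of dim genes. The mean over the 4 mice is given with its standard error (SE) from the fitted model. That model drew the spread of each probe set toward a value common to all, so an SE does not rest on the 4 values alone. At an adjusted p under 0.05, 26 of 8628 probe sets were higher after αCD3, or 0.301%, and 2 were lower, or 0.0232%. The spread behind these tests and SEs was estimated from the 4 control and 2 MED23 null (*Med23flox/flox;Lck-Cre*) mice together. From the 4 control mice alone 14 were higher and 0 lower, so that neither fall passed. At an unadjusted p under 0.05 there were 493 higher and 235 lower. By size alone, 291 probe sets (3.37%) were higher in all 4 mice by at least 0.5 on average and 102 (1.18%) were lower in all 4 by as much. Changes of at least 1 in all 4 mice numbered 64 upwards and 4 downwards. The median over all probe sets was 0.00. Of the 28 probe sets called, 25 carry 1 gene symbol. The others rose, by 1.72 and 1.63 where several symbols are given and by 1.02 where none is. The count of calls varied with the mouse left out: it was 3 higher without *Lck-Cre* 1, 4 without *Lck-Cre* 2, 14 without *Med23flox/flox* 1 and 3 without *Med23flox/flox* 2, with 0 lower in each case. *Nr4a1*, *Cd5* and *Ccl4* passed in each of these 4 fits, and a fit without the pairing by mouse called 48 higher and 2 lower.

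**Figure D1:**
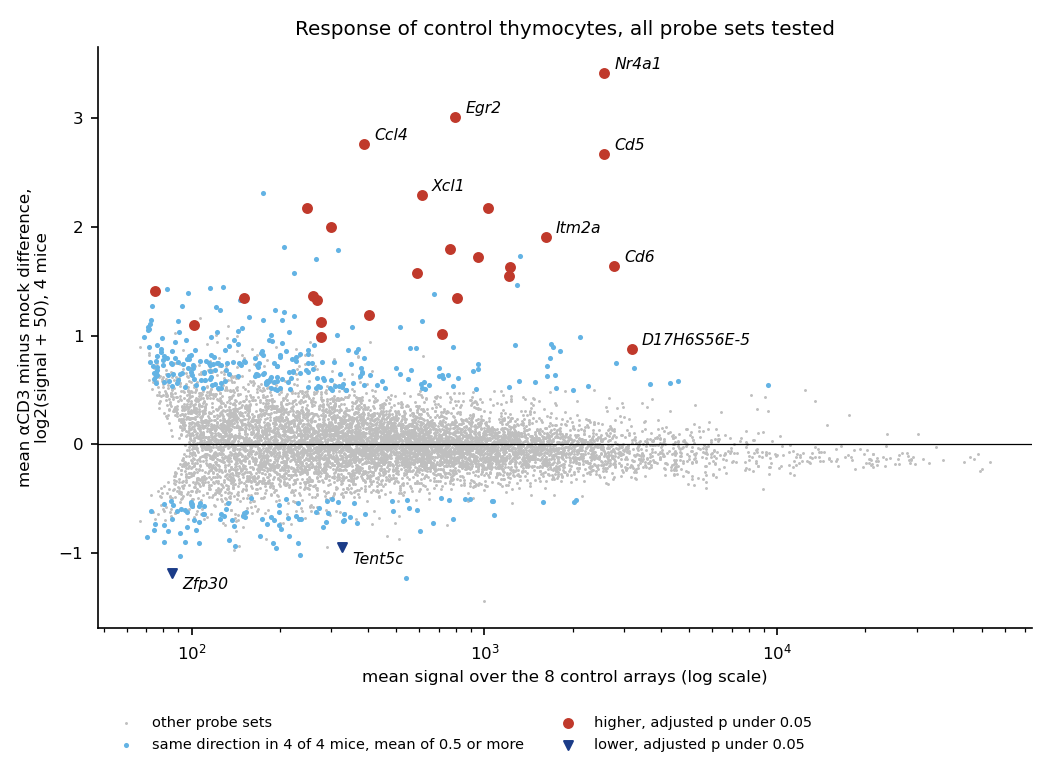
Mean signal over the 8 control arrays (log scale) against the mean αCD3 minus mock difference in log2(signal + 50) over 4 mice, 1 point per probe set. The 26 probe sets that rose reach 3.41 for *Nr4a1*, whereas *Tent5c* and *Zfp30*, the 2 that fell, lie at -0.95 and -1.19, and brighter probe sets scatter less around 0.

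The αCD3 array of *Med23flox/flox* 1 stood apart before any comparison was made. Its lower quartile of signal was 85.2 against 51.3 to 54.1 on the αCD3 arrays of the other control mice, and it correlated with the other arrays at 0.928 on average, where those 3 reached 0.955 to 0.957. The 3′ to 5′ signal ratio of the actin control probe sets, a measure of RNA integrity, lay between 1.35 and 1.60 on all control arrays. Precision followed brightness. The median SD of the difference over the 4 mice was 0.57 for probe sets with mean signals of 100 to 200 and 0.14 for those of at least 5000.

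Transcription factors of the immediate early class held the largest rises. *Nr4a1*, which encodes the orphan nuclear receptor NUR77 and is widely used as a reporter of TCR signal strength, had mock signals of 258, 393, 341 and 591 and αCD3 signals of 3809, 4742, 3372 and 6928. Every αCD3 array was above every mock array, and the difference was 3.41 (SE 0.12, adjusted p = 0.000275). *Egr2*, an ERK-responsive zinc finger factor with a role in thymocyte selection, went from 114, 56.6, 255 and 167 to 1321, 1352, 1503 and 1585. Its αCD3 signals were alike in all mice and its mock signals varied more. The difference was 3.01 (SE 0.22, adjusted p = 0.00547). *Egr1*, from the same family, rose from 340, 337, 226 and 471 to 1484, 1438, 1620 and 2283, a difference of 2.17 (SE 0.26, adjusted p = 0.0421). Of the same class, *Ier2* rose by 1.55 (SE 0.12, adjusted p = 0.00737) and *Myc*, the growth regulator, by 1.33 (SE 0.16, adjusted p = 0.0413).

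The list of immediate early genes had 22 tested members, of which these 5 rose and none fell by the test. Its median was 0.46 against -0.01 over all genes tested. By direction alone, 11 members were higher in all 4 mice, or 50% against 9.11% of all genes, and 1 was lower in all 4, against 9.62% of all genes. Of the 11, *Fos* and *Nr4a2* had mean mock signals under 100 and entered the comparison through their αCD3 signals. *Jun* and *Maff*, with mean αCD3 signals under 100, entered through their mock signals. *Fos*, the AP-1 subunit, was higher in all 4 mice without passing the test, with mock signals of 67.1, 105, 64.7 and 19.6 and αCD3 signals of 259, 377, 259 and 497 (difference 1.82, SE 0.28, adjusted p = 0.0759). *Zfp36l1*, which promotes decay of mRNAs with AU-rich elements, was higher by 0.99 (adjusted p = 0.0865) and *Nr4a2*, a relative of *Nr4a1*, by 1.07 (adjusted p = 0.297). The class did not move as 1 block. *Jund* and *Btg2*, both bright before stimulation, lay at -0.03 and -0.06, *Fosb* at -0.27 and *Jun* at -0.24, with mice in both directions. Of the 2 *Junb* probe sets the brighter one lay at 0.06 and the other at 1.12, higher in all 4 mice (adjusted p = 0.176), so the gene's response depends on the probes used.

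Promoter windows were available for 13 of the 23 named genes that rose. They are the 250 bases before the annotated start of transcription in RefSeq (build GRCm38.p6), and they were searched on both strands for the letters of sites that these factors recognise. The EGR site GCGNGGGCG was in 2 of the 13 windows (*Nr4a1* and *Gadd45b*) and in 8.49% of the 5086 windows of tested genes. The CRE core TGACG was in 4 (*Nr4a1*, *Bcl2*, *Bysl* and *Itm2a*) against 27.5%. The NFAT core GGAAAA was in 3 (*Tnf*, *Tnfrsf9* and *D17H6S56E-5*) against 18.8%. The AP-1 site TGANTCA, the CArG box of SRF and the κB site were in 0 of the 13, against 4.92%, 1.22% and 4.27%. The shares among 13 windows rest on few genes and no more is read from them. The windows of *Nr4a1* (chr15:101266596-101266845, plus strand), with 4 CRE cores and 1 EGR site between, of *Gadd45b* (chr10:80929841-80930090, plus strand), with an EGR site, and of *Tnf* (chr17:35202008-35202257, minus strand), with 2 NFAT cores, show where the letters lie. Each is written 5′ to 3′ on the strand of its gene, and capitals mark a match on either strand.
Nr4a1: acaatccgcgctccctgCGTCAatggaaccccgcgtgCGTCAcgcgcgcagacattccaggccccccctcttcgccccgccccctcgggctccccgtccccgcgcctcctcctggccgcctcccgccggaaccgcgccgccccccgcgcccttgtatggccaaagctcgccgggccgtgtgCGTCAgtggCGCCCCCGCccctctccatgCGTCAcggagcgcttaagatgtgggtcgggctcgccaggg
Gadd45b: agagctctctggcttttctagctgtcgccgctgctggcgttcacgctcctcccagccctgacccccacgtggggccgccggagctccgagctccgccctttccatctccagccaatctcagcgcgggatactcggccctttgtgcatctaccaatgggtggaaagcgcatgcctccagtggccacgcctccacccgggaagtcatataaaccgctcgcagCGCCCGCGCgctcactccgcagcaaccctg
Tnf: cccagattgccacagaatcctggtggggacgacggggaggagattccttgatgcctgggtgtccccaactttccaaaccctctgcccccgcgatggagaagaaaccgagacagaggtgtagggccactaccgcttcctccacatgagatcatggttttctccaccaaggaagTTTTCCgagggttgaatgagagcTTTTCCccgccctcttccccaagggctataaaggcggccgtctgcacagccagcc
In *Nr4a1* the CRE cores lie at -233 to -229, -213 to -209, -69 to -65 and -40 to -36 from the start, with the EGR site at -60 to -52. The EGR site of *Gadd45b* lies at -30 to -22, and the NFAT cores of *Tnf* at -78 to -73 and -55 to -50. None of these matches overlaps another.

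Genes that restrain signalling made up the next group. *Cd5*, a scavenger receptor family glycoprotein that dampens TCR signals and whose level follows their strength, rose from 605, 600, 546 and 861 to 4215, 3648, 3948 and 5997. The difference of 2.67 had the smallest SE among the large rises (0.11, adjusted p = 0.000301), and the groups were far apart. *Cd6*, its close relative, went from 1183, 1094, 1359 and 1610 to 3938, 3445, 3880 and 5614 (difference 1.64, SE 0.12, adjusted p = 0.00547). *Nab2*, a corepressor that binds EGR proteins, rose from 294, 306, 263 and 354 to 970, 946, 1134 and 1819 (difference 1.80, SE 0.15, adjusted p = 0.00792). *Rrad*, a small GTPase of the RGK family, rose by 1.34 (SE 0.15, adjusted p = 0.0343).

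Of 23 feedback regulators tested, these 4 rose and none fell, and the median was 0.34. In all 4 mice 13 were higher, or 56.5%, and 2 lower, or 8.7%. Members higher in all 4 mice that missed the test included *Dusp2*, a nuclear phosphatase of ERK, with mock signals of 1082, 1100, 1162 and 1204 and αCD3 signals of 2270, 1913, 1880 and 2855 (difference 0.92, adjusted p = 0.0681). *Ptpn6*, the phosphatase SHP-1, was higher by 0.74 (adjusted p = 0.0779), *Tnfaip3*, the ubiquitin-editing enzyme A20, by 0.72 (adjusted p = 0.178) and *Nfkbia*, which encodes IκBα, by 0.58 (adjusted p = 0.176). *Nfkbie*, another IκB, was lower in all 4 mice, but its signals of 389, 268, 330 and 217 after mock and 117, 265, 188 and 116 after αCD3 overlapped (difference -0.69, adjusted p = 0.59). *Dgka*, which removes diacylglycerol, was lower in all 4 by 0.21 (adjusted p = 0.658). *Gadd45b*, a stress sensor linked to MAPK signalling, had 2 probe sets of unlike size. The dimmer rose from 36.4, 18.8, 64.4 and 127 to 439, 306, 403 and 589 (difference 2.18, SE 0.18, adjusted p = 0.00737), and the brighter lay at 0.60 with 3 of 4 mice higher (adjusted p = 0.562).

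Cytokines and chemokines showed the highest median of any list, 0.63 over 12 tested genes of 19 on the array. Of these, *Ccl4*, *Il4*, *Tnfsf8* and *Fasl* had mean mock signals under 100 and entered the comparison through their αCD3 signals. The median and shares of this list rest in part on them. *Ccl4*, a chemokine for T-cells and monocytes, went from 45.4, 101, 21.4 and 74 to 713, 782, 352 and 1019, with the lowest value on both sides in *Med23flox/flox* 1 (difference 2.76, SE 0.16, adjusted p = 0.00198). *Xcl1*, the chemokine lymphotactin, rose from 157, 117, 235 and 158 to 1261, 996, 544 and 1410, with a difference of 1.06 in *Med23flox/flox* 1 and of 2.65 to 2.81 in the others (mean 2.30, SE 0.29, adjusted p = 0.0461). *Tnf* rose from 245, 49.9, 59 and 46.7 to 626, 511, 294 and 563, the highest mock value being that of *Lck-Cre* 1 (difference 2.00, SE 0.26, adjusted p = 0.0491). *Il5* rose by 1.10 (SE 0.14, adjusted p = 0.0437) and was dim throughout, with mock signals of 27.7 to 67.7 and αCD3 signals of 87.6 to 206. *Il5* was not on the list.

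Of the 12 list members, 3 rose, none fell, and 8 were higher in all 4 mice (66.7%) with 0 lower. *Ccl3*, the neighbour and relative of *Ccl4*, was at 196, 65.5, 42.6 and 111 after mock and 778, 558, 118 and 669 after αCD3, and overlapped only through *Med23flox/flox* 1 (difference 1.79, SE 0.32, adjusted p = 0.124). *Il4* was higher in all 4 on both of its probe sets, by 1.43 on each (adjusted p = 0.0961 and 0.0827), with mock signals mostly under 100. *Ltb*, already bright at a mean mock signal of 3524, was higher in all 4 by 0.56 (adjusted p = 0.590). *Ccl1* lay at -0.55 and *Il3* at -0.01, with mice in both directions. *Lta* differed by probe set, at 0.00 on the brighter and 1.04 on the dimmer, which was higher in all 4 mice (adjusted p = 0.161).

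**Figure D2:**
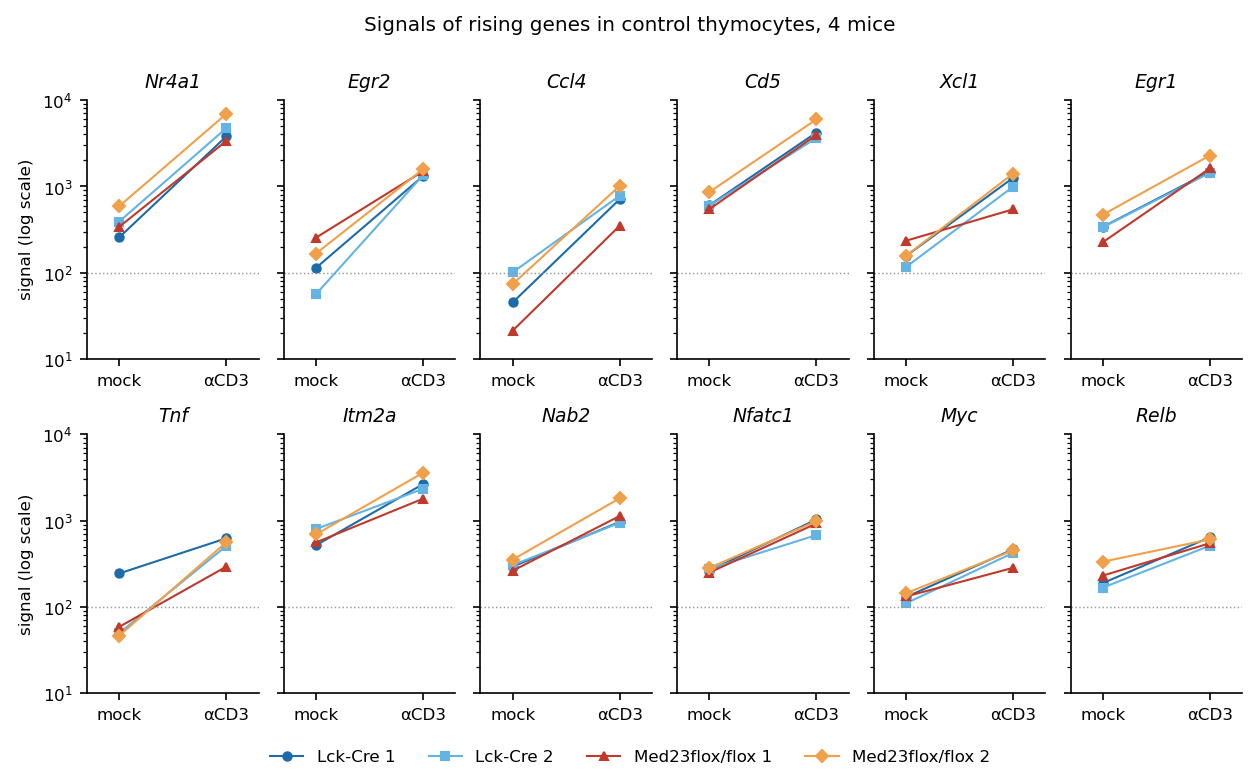
MAS5 signal (log scale) after mock and after αCD3 of 12 genes that rose, 1 line per control mouse, with a dotted line at a signal of 100. All lines climb, with *Med23flox/flox* 1 (triangles) lowest after αCD3 for *Nr4a1*, *Ccl4*, *Xcl1*, *Tnf*, *Itm2a* and *Myc*.

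Among the factors downstream of calcium and NF-κB, *Nfatc1* rose from 264, 277, 251 and 284 to 1033, 681, 930 and 990 (difference 1.57, SE 0.16, adjusted p = 0.0201). It is the inducible member of the NFAT family. *Relb*, the NF-κB subunit of the alternative pathway, rose by 1.19 (SE 0.16, adjusted p = 0.0495), and *Nfkbiz*, a nuclear IκB, by 1.12 (SE 0.14, adjusted p = 0.0437). Of 15 factors on the list 2 rose, none fell, the median was 0.27, and 10 were higher in all 4 mice (66.7%). With each array scaled by a 10% trimmed mean 7 were. The 10 included *Irf4* and *Bcl3*, which had mean mock signals under 100 and entered the comparison through their αCD3 signals. They also included *Ppp3r1*, at 0.03, so this share rests in part on such members. *Irf4*, a factor graded by TCR signal, was at 15.9 to 24.3 after mock and at 505, 366, 105 and 345 after αCD3, and so was under 100 in every mouse before stimulation (difference 2.31, SE 0.35, adjusted p = 0.0779). *Irf1* was at 525 to 765 after mock and 1587 to 2552 after αCD3, without overlap (difference 1.46, SE 0.20, adjusted p = 0.0509). The constitutive members were near 0: *Rela*, the main transactivating subunit, at 0.04, *Stat5b* at -0.06, and the calcineurin chains *Ppp3ca*, *Ppp3cb* and *Ppp3r1* at -0.03, 0.07 and 0.03. *Nfatc3* was lower in all 4 mice by 0.18 (adjusted p = 0.699).

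Of 16 genes on the list of activation and costimulatory receptors, only *Itm2a* rose by the test on its brightest probe set. None fell, and the median was 0.39, with 5 higher in all 4 mice (31.2%) and 0 lower. *Itm2a*, a type II membrane protein induced during thymocyte selection and not itself a costimulatory receptor, went from 519, 799, 560 and 693 to 2647, 2338, 1797 and 3591 (difference 1.91, SE 0.18, adjusted p = 0.0146). *Tnfrsf9*, the costimulatory receptor 4-1BB, was at 10.4 to 28.3 after mock and at 169, 104, 81.3 and 175 after αCD3 on the probe set that rose (difference 1.41, adjusted p = 0.0188), while its brighter probe set lay at -0.20 with mice in both directions. *Icos* was higher in all 4 by 0.65 (adjusted p = 0.176), *Pdcd1*, the inhibitory receptor PD-1, by 0.72 (adjusted p = 0.169), *Tnfrsf4*, OX40, by 0.80 (adjusted p = 0.222) and *Cd44* by 0.87 (adjusted p = 0.176). *Cd44* and *Cd80* had mean mock signals under 100 and entered the comparison through their αCD3 signals. The brighter *Tnfrsf9* probe set entered through its mock signal. *Cd28* and *Cd27* were bright before stimulation and higher in 3 of 4 mice, by 0.35 and 0.31. *Ctla4* at 0.11 and *Tnfrsf18* at 0.06 had mice in both directions.

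The list of BCL2 family, caspase and death receptor genes, 22 tested, had a median of 0.05, with 3 higher in all 4 mice (13.6%) and 0 lower, and no call on the brightest probe sets. *Bcl2*, which protects mature T-cells from death, again divided by probe set. One rose from 60.3, 64.7, 50.7 and 73.1 to 234, 167, 226 and 334 (difference 1.35, SE 0.14, adjusted p = 0.0266), another was higher in all 4 by 1.71 (adjusted p = 0.0644), and the brightest, at 514 to 621 after mock, lay at 0.10 with mice in both directions. *Bcl2l11*, which encodes the proapoptotic BIM, was higher in all 4 mice on each of 3 probe sets, by 0.51 to 1.01, without passing the test (adjusted p = 0.135 to 0.548). *Birc3*, an inhibitor of apoptosis under NF-κB control, was higher by 0.88 (adjusted p = 0.0623). *Bcl2l1*, *Mcl1*, *Fas*, *Casp8* and *Apaf1* lay between -0.08 and 0.03.

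Growth genes moved by less. *Bysl*, needed to assemble the small ribosomal subunit, rose by 1.36 (SE 0.18, adjusted p = 0.0485) and *Srm*, spermidine synthase, by 0.98 (SE 0.13, adjusted p = 0.0495), from mock signals of 167, 147, 219 and 142 to 342, 279, 495 and 428. Of 29 genes of ribosome biogenesis, translation factors and MYC targets, 1 rose (*Srm*), none fell, the median was 0.27, 22 lay above 0, and 7 were higher in all 4 mice (24.1%) with 1 lower. *Bop1* (0.65), *Nop2* (0.45), *Gart* (0.45), *Odc1* (0.42) and *Nop56* (0.40) were higher in all 4, while the abundant nucleolar proteins *Npm1* and *Ncl* lay at -0.04 and 0.00. *Ccnd2*, the D cyclin of lymphocyte entry into cycle, went from 126, 123, 112 and 25.1 to 381, 364, 168 and 242 (difference 1.23, SE 0.25, adjusted p = 0.176). On the brightest probe sets it stood alone among 35 cell cycle genes. Their median was -0.03, and the other members lay between -0.37 and 0.22. *Plk1* differed by probe set, at 0.05 on the brightest and -0.54 on a dimmer one. The dimmer one was lower in all 4 mice without overlap (adjusted p = 0.498). *Hk2*, the inducible hexokinase, was higher in all 4 by 1.06 with αCD3 signals of 88.2 to 139 (adjusted p = 0.228), and the 15 glycolytic genes had a median of 0.07. *D17H6S56E-5* had the smallest rise that passed, from 2140, 2133, 2171 and 2488 to 4166, 3916, 4295 and 4154 (difference 0.88, SE 0.11, adjusted p = 0.0437).

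Chaperones gave a few members away from a flat list. *Hsph1*, an HSP110 nucleotide exchange factor, was at 324, 290, 250 and 378 after mock and 744, 564, 971 and 607 after αCD3 (difference 1.08, adjusted p = 0.127). *Hspa5*, the endoplasmic reticulum chaperone BiP, was at 1230, 1024, 1257 and 1276 and then 2187, 2070, 1599 and 2730 (difference 0.80, adjusted p = 0.135). Neither pair of groups overlapped. The 55 chaperones tested had a median of 0.06, with 9 higher in all 4 mice (16.4%), and the 21 genes of the unfolded protein response had a median of -0.01, with *Ddit3*, *Atf4* and *Herpud1* at -0.11, 0.05 and 0.00. *Cd2*, an adhesion receptor of T-cells, was higher without overlap, from 1107, 899, 580 and 909 to 1869, 1481, 1442 and 1873 (difference 0.92, adjusted p = 0.0701), and *Lcp1*, the actin bundling protein L-plastin, by 0.86 (adjusted p = 0.141).

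Falls were fewer by the test and by size, and smaller. By direction alone 795 probe sets were lower and 805 higher in all 4 mice. *Tent5c*, a noncanonical poly(A) polymerase, fell from 468, 465, 360 and 485 to 229, 227, 170 and 197 (difference -0.95, SE 0.12, adjusted p = 0.0448). *Zfp30*, a KRAB zinc finger gene, had mock signals of 119, 139, 208 and 92.1 and αCD3 signals of 20.2 to 39.9 (difference -1.19, SE 0.14, adjusted p = 0.043), and signals this low bound its size poorly. Neither passed in any fit that left out a control mouse, though the difference of *Tent5c* stayed between -0.97 and -0.89 and that of *Zfp30* between -1.29 and -1.07.

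The 20 named probe sets with the largest falls in all 4 mice lay between -1.23 and -0.79, and 11 of them had mean αCD3 signals under 100, and 5 of the 20 largest rises had mean mock signals under 100. Over all changes of at least 0.5 in all 4 mice the dim share was alike, with 42 of 102 falls and 121 of 291 rises under 100 in the treatment where they were lower. Of the 102 probe sets lower in all 4 by at least 0.5, 19 had mean mock signals of at least 500, and of the 291 higher ones 73 had mean αCD3 signals of at least 500. Some of the 20 had mean αCD3 signals of at least 100 but mean mock signals under 500. Among these, *Rcan3*, a regulator of calcineurin, was at 510, 249, 297 and 270 after mock and 198, 77, 116 and 162 after αCD3, without overlap (difference -1.02, SE 0.19, adjusted p = 0.132). *Acvr1b*, an activin receptor, was at 288, 235, 261 and 254 and then 73, 95.3, 123 and 187 (difference -0.91, adjusted p = 0.297), and *Abcb8*, a mitochondrial transporter, at 325, 276, 233 and 246 and then 102, 83, 168 and 114 (difference -0.96, adjusted p = 0.269). *Mllt1*, a component of elongation complexes, was lower by 0.91 (adjusted p = 0.214) with *Med23flox/flox* 2 overlapping the mock range. The lowest, *Snrp1c-ps2* at -1.23 (adjusted p = 0.176), is a pseudogene of a spliceosomal protein on a probe set whose probes match several transcripts, so its source is uncertain. *Gng2*, a G protein γ subunit, missed the threshold by little (-0.82, SE 0.11, adjusted p = 0.0509), at αCD3 signals of 9.3 to 83.3. The rest of the 20, *Plscr1*, *Epha4*, *Cmtm8*, *Ctf1*, *Prss29*, *Kap*, *Adam28*, *Bik*, *Apom*, *Ifitm10*, *Rgs10* and *Msi1*, had adjusted p-values between 0.0623 and 0.58.

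**Figure D3:**
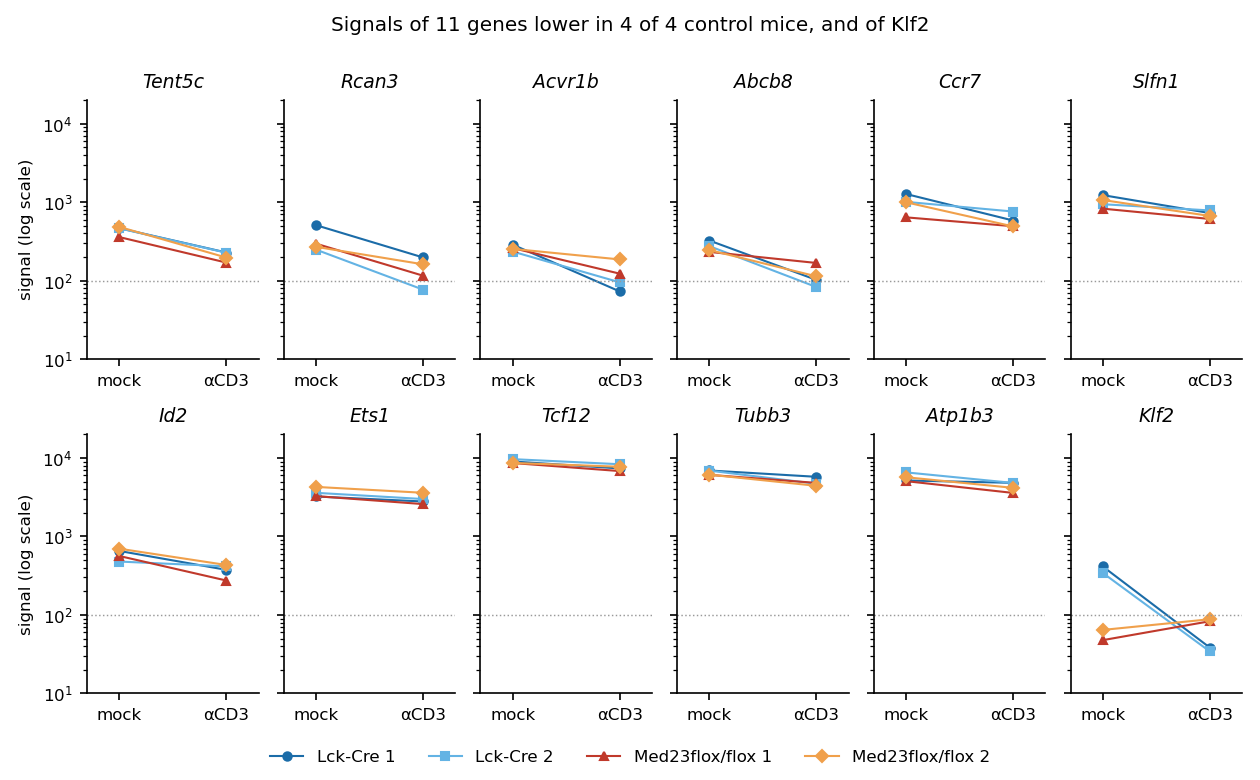
MAS5 signal (log scale) after mock and after αCD3, 1 line per control mouse, for 11 genes that were lower in all 4 mice and for *Klf2*, with a dotted line at a signal of 100. *Tent5c* is the 1 gene shown that passed the test, and *Klf2* went down in both *Lck-Cre* mice and lay between 47.7 and 88.1 in the *Med23flox/flox* mice.

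Quiescence and homing genes had the lowest medians of the functional lists. Of 17 quiescence and survival genes, none passed the test, the median was -0.20, 13 lay below 0, and 0 were higher and 3 lower in all 4 mice (17.6%). The 3 were *Slfn1*, *Slfn2* and *Ypel3*. *Slfn1*, a Schlafen gene of resting thymocytes, was at 1232, 943, 828 and 1067 after mock and 727, 786, 612 and 668 after αCD3, without overlap (difference -0.50, adjusted p = 0.297). Of 15 egress and homing genes, none passed, the median was -0.17, and 3 were lower and 2 higher in all 4 mice (20% and 13.3%). *Ccr7*, the chemokine receptor that guides positively selected cells to the medulla, was at 1273, 1011, 642 and 998 and then 585, 761, 495 and 491, lower in each mouse with overlap between groups through *Med23flox/flox* 1 (difference -0.69, SE 0.16, adjusted p = 0.241). *Itgb7* was lower in all 4 by 0.27 (adjusted p = 0.633), and *Il7r*, the survival receptor for IL-7, in 3 of 4 by 0.37 (adjusted p = 0.574). *Cxcr4* and *Itgb2* were higher in all 4, by 0.23 and 0.38. *Klf2*, the factor that keeps T-cells quiescent and drives egress, divided by genotype: 415 and 343 went to 38.3 and 34.2 in the *Lck-Cre* mice, and 47.7 and 64.4 went to 83.1 and 88.1 in the *Med23flox/flox* mice. The genotypes' responses differed by -2.67 (adjusted p = 0.465), and all 4 αCD3 signals were under 100.

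Transcription factors of thymocyte lineage choice split into both directions. None of 26 passed the test, 10 were lower in all 4 mice (38.5%) and 4 higher (15.4%), and the median was -0.11. The 10 included *Id2* and *Id1*, inhibitors of E proteins, the E proteins *Tcf12*, *Tcf3* and *Tcf4* themselves, *Ets1*, *Runx1* with its partner *Cbfb*, and *Lef1*. *Id2* was at 653, 478, 564 and 698 and then 375, 416, 274 and 432, without overlap (difference -0.62, SE 0.18, adjusted p = 0.376). The E proteins and *Ets1* were lower by 0.20 to 0.26, with adjusted p-values of 0.566 to 0.742. The 4 higher were *Ikzf1*, *Gata3*, *Myb* and *Bcl6*. *Ikzf1*, which encodes Ikaros, was at 2343, 2562, 2576 and 2295 and then 4438, 4336, 3194 and 4140 (difference 0.70, SE 0.17, adjusted p = 0.253). *Gata3*, the factor of the CD4 lineage, was at 915, 768, 683 and 686 and then 924, 948, 1201 and 1377 (difference 0.51, adjusted p = 0.523), with almost no change in *Lck-Cre* 1. With quantile normalization 8 were lower in all 4 and 5 higher.

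Genes of V(D)J recombination, which cut and join receptor segments, were slightly lower throughout. All 7 lay below 0, between -0.23 and -0.09, with a median of -0.17, and 4 were lower in all 4 mice (57.1%), although none passed the test. *Rag1*, the recombinase, was lower by 0.12 (at 0.02 with quantile normalization) and *Dntt*, terminal transferase, by 0.19 on its brightest probe set. *Rag1* and *Dntt* are among the brightest genes on the arrays, and bright genes as a whole went the same way. *Xrcc6* and *Prkdc*, also lower in all 4 mice, were less bright, with mean mock signals of 4783 and 307. Of 165 genes with mean signals of at least 5000, 33.3% were lower in all 4 mice and 6.06% higher, with a median of -0.10. With quantile normalization, which gives every array the same distribution, 12.1% were lower and 9.09% higher with a median of -0.03, and 1 of the 7 recombination genes was lower in all 4.

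Cytosolic ribosomal proteins followed the same pattern. Of 27, 13 were lower in all 4 mice (48.1%), 0 were higher, none passed the test, and the median was -0.12, which became -0.01, with 3 lower in all 4, under quantile normalization. *Rps19* was the lowest at -0.41 (adjusted p = 0.659), drawn there by *Med23flox/flox* 1 at -0.81 against -0.30 to -0.25 in the others. The 11 tubulin and microtubule genes had a median of -0.16 (-0.08 under quantile normalization), with 3 lower and 1 higher in all 4 mice. *Tubb3* was at 6918, 6893, 6085 and 6120 and then 5748, 4683, 4807 and 4411, without overlap (difference -0.41, adjusted p = 0.376). Its probe set matches several transcripts, so other tubulins may contribute. *Tuba4a* was the member higher in all 4, by 0.76 (adjusted p = 0.374).

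**Figure D4:**
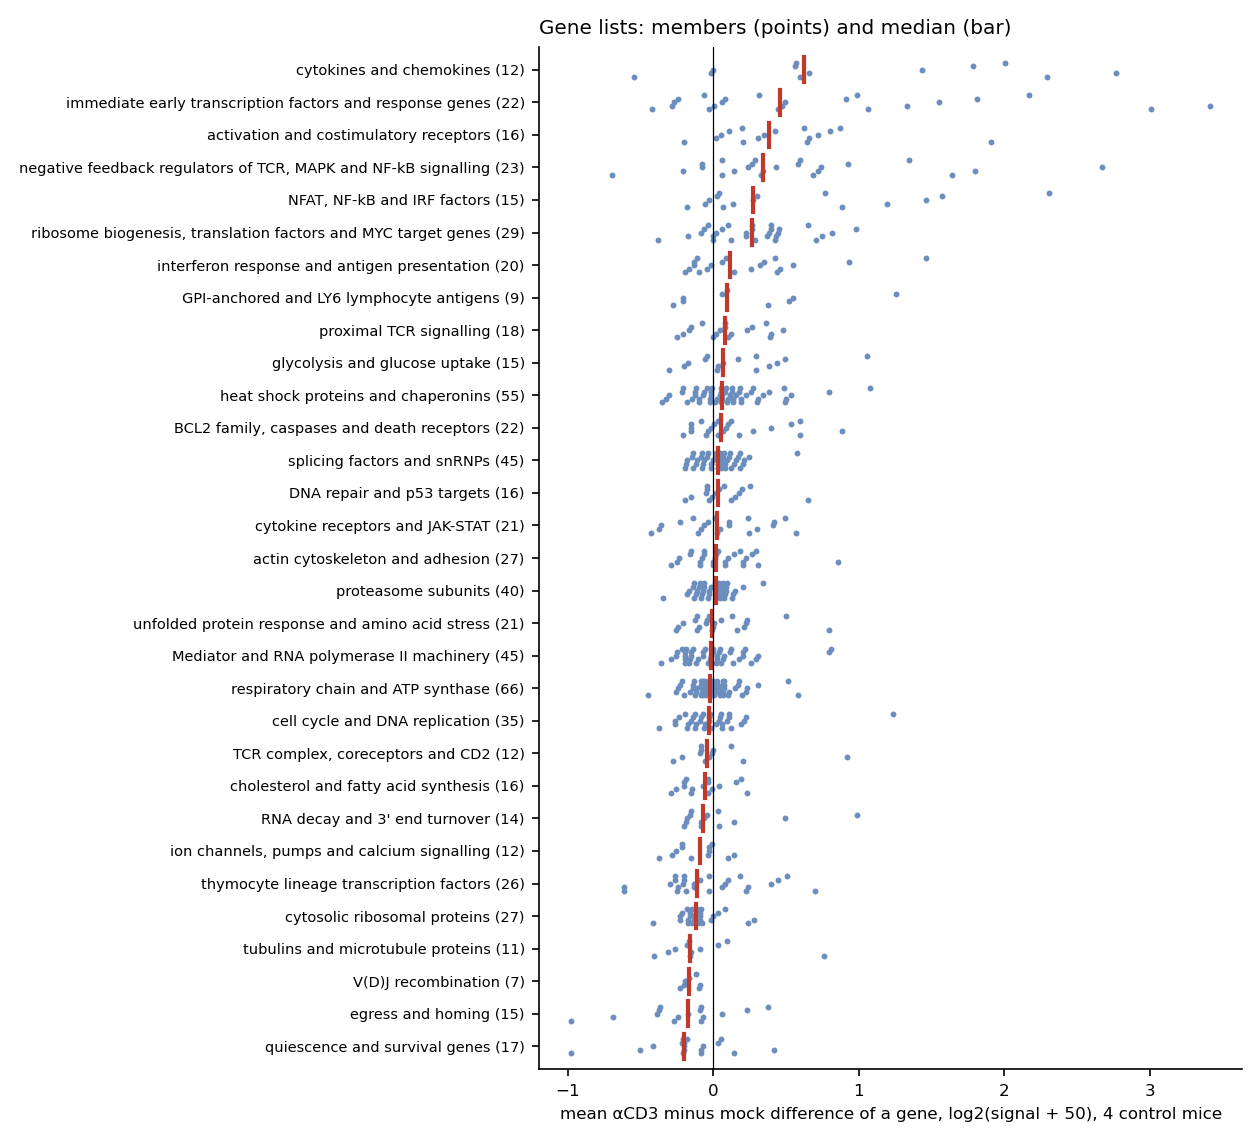
Mean αCD3 minus mock difference in log2(signal + 50) of each gene (points) in the 31 lists with at least 7 tested members, ordered by median (bars), with the number tested in parentheses. Medians run from 0.63 for cytokines and chemokines to -0.20 for quiescence genes, and in most lists the upper tail is longer than the lower.

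Large housekeeping functions were centred near 0. The medians were -0.03 for 66 genes of the respiratory chain, 0.02 for 40 proteasome subunits, 0.04 for 45 splicing factors, -0.02 for 45 genes of Mediator and the RNA polymerase II machinery, and 0.03 for 16 DNA repair and p53 target genes, and no member passed the test. Single members stood out in some: *Srsf10*, a splicing regulator, was higher in all 4 by 0.58 on its brighter probe set (adjusted p = 0.155), *Cycs*, cytochrome c, by 0.58 (adjusted p = 0.559) and *Apex1*, a base excision repair enzyme, by 0.65 (adjusted p = 0.214). Cholesterol and fatty acid synthesis lay at -0.05 over 16 genes, RNA decay at -0.07 over 14, ion channels and calcium signalling at -0.09 over 12, actin and adhesion at 0.02 over 27, and cytokine receptors and JAK-STAT at 0.02 over 21. The 20 interferon response genes had a median of 0.11, with *Irf1* and the GTPase *Irgm1* (0.94, adjusted p = 0.132) the farthest above 0. The 3 histone genes tested lay between -0.27 and 0.11.

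The receptor that was engaged and the machinery next to it were little altered. Of 12 genes of the TCR complex, coreceptors and CD2 the median was -0.04 (0.01 under quantile normalization), with *Cd3e*, *Cd3d*, *Cd3g* and *Cd247* between -0.08 and 0.00. The farthest from 0 were *Cd2* (0.92), the 1 member higher in all 4 mice, and *Thy1* (-0.28). *Cd4* and *Cd8b1* were lower in all 4 mice, by 0.09 and 0.21. Among 18 proximal signalling genes the median was 0.08, with 4 higher in all 4 (22.2%) and 0 lower. They were the kinases *Zap70* (0.36) and *Fyn* (0.39), the phospholipase *Plcg1* (0.40) and the adaptor *Sh2d2a* (0.48), with adjusted p-values of 0.252 to 0.559. Of 9 GPI-anchored and LY6 antigens 4 were higher in all 4 mice (44.4%), among them *Cd24a*, a marker of immature thymocytes, at 7332, 7506, 7991 and 7499 after mock and 11368, 10982, 10693 and 11286 after αCD3, without overlap (difference 0.54, adjusted p = 0.19).

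**Figure D5:**
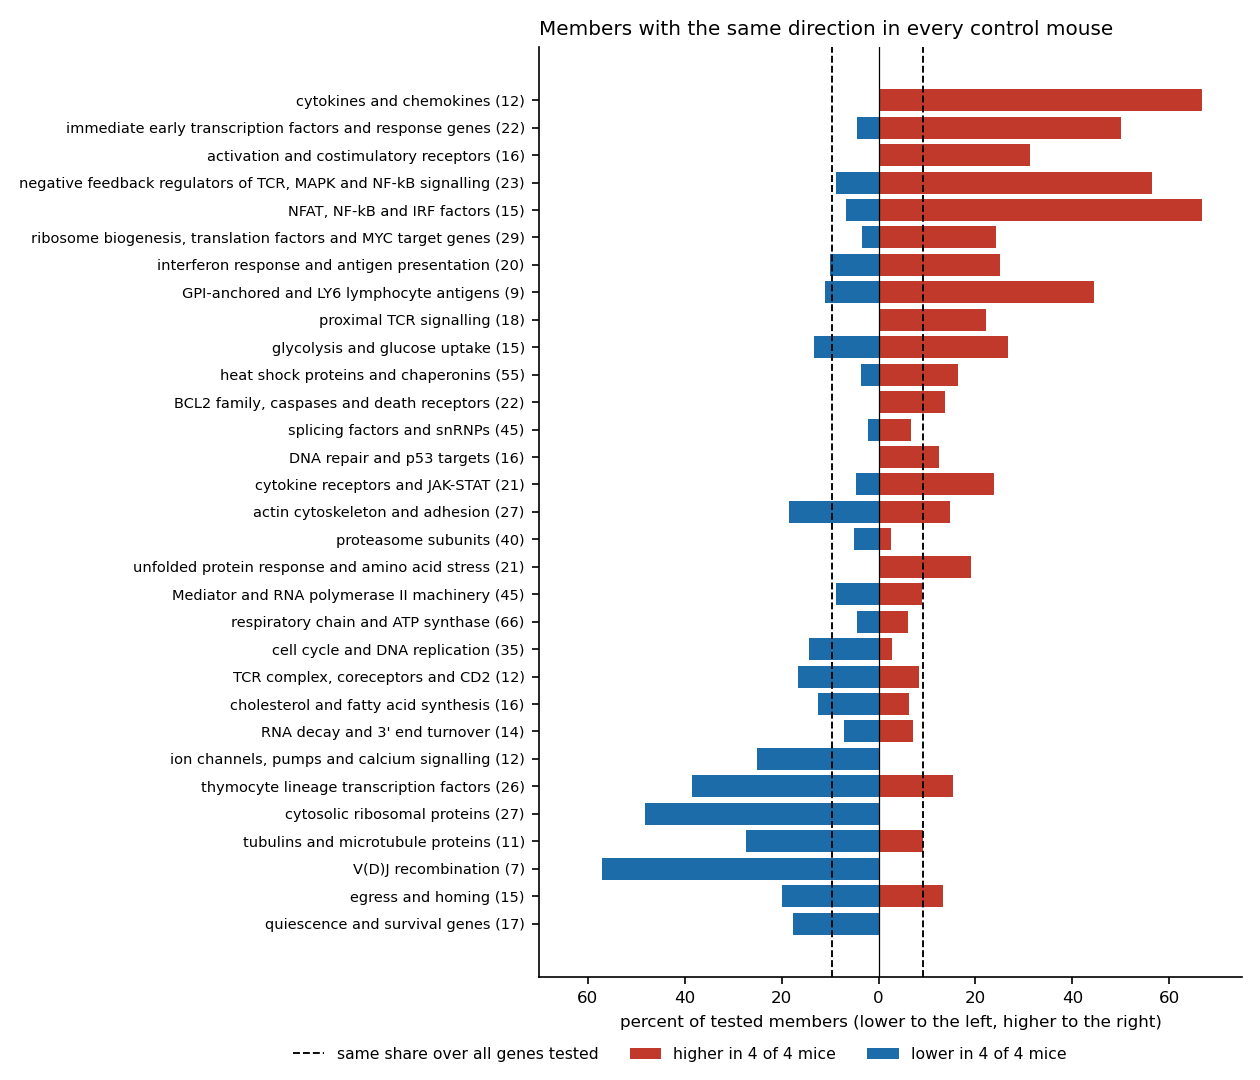
Share of tested members of each list (percent) that were higher (right) or lower (left) in all 4 control mice, with the number tested in parentheses and dashed lines at 9.11% and 9.62%, the shares over all 6332 genes. Cytokines and NFAT, NF-κB and IRF factors reach 66.7% on the right, and V(D)J recombination and ribosomal proteins reach 57.1% and 48.1% on the left.

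The labelled cell type was borne out by its markers. DP markers were bright, with *Rag1* at a mean mock signal of 30153, *Dntt* at 23376 and *Cd8b1* at 22882, and the summed signal of 8 DP markers was 92034 to 97035 after mock and 83097 to 86720 after αCD3, lower in each mouse. The sums of 4 T-lineage markers (28652 to 31428, then 25187 to 28063) and of 6 mature single positive markers (11957 to 15444, then 11548 to 13199) were also lower after αCD3 in each mouse, as was the sum of 3 erythroid markers, mostly *Hba-a1* (6338 to 16656, then 6294 to 15513). Gene by gene, 0 of the 4 T-lineage markers were lower in all 4 mice, though all 4 had means below 0. Of the 3 erythroid markers, 2 lay above 0 and 1 below, with a median of 0.02. The mature single positive markers had a median of -0.32, with 3 of 6 lower in all 4 mice (50% against 9.62% of all genes). By mouse their medians were -0.62, -0.45, 0.01 and -0.24. Among these markers *Ccr7*, *Klf2*, *S1pr1*, *Itgb7* and *Il7r* are also on the egress and homing list, so the marker result is not separate from that list. With quantile normalization 1 of the 8 DP markers was lower in all 4 mice, against 4 without it, and their median went from -0.09 to -0.05, while the median of the T-lineage markers went from -0.06 to 0.00. The median of the mature single positive markers stayed at -0.32, with 2 of 6 lower in all 4 mice. In total thymocytes, fewer cells of a type and less RNA per cell cannot be told apart, and the part of array scaling was not tested. Sums for 9 B-cell markers (3564 to 4331, then 3327 to 4837) and 10 myeloid markers (3340 to 5399, then 3306 to 5097) overlapped between treatments. The myeloid sum was higher after αCD3 in 1 of 4 mice, and its 10 genes lay between -0.58 and 0.86, 5 above and 5 below 0. The highest was *Lyz2*, the macrophage lysozyme (adjusted p = 0.151). The sum of 4 NK and cytotoxic markers was 1403 to 1946 after mock and 1756 to 2073 after αCD3, higher in each mouse, although gene by gene 0 of the 4 were higher in all 4 mice and 1 was lower (median 0.31). *Ccl4*, *Ccl3* and *Xcl1* are also made by NK cells, and the part of such cells in their rise was not tested. No marker was at 0 on any control array.

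Both control genotypes were averaged, and the difference between their responses was tested over the same 8628 probe sets. None passed, with 482 at an unadjusted p under 0.05 and a smallest adjusted p of 0.465, which with 2 mice per genotype does not show that they responded alike. Within each genotype alone 0 probe sets passed, with *Nr4a1* at 3.54 in the *Lck-Cre* and 3.29 in the *Med23flox/flox* mice and *Cd5* at 2.61 and 2.74.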

How the data were processed

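The values analysed are linear intensities per probe set, which the authors computed as MAS5 signals (version not given in the sources used here) from Affymetrix mouse genome arrays and deposited, 1 array per mouse and treatment. Detection calls were not used here. Without 66 array controls, 10833 of the 12488 probe sets had 1 symbol in the platform annotation, of which 10817 were matched by Entrez ID to RefSeq genes of GRCm38.p6. A further 396 had several symbols and 1193 none, and no gene was named from these.

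Signals were taken to log2 after adding 50. Within-mouse differences of the 4 control and 2 MED23 null mice were fitted in R 4.3.3 with limma 3.58.1 (lmFit and eBayes), with a mean for each class, a shared spread and 4 residual degrees of freedom. The control genotypes were compared in a separate limma fit of the same differences, with a mean for each genotype and so fewer residual degrees of freedom. Two-sided p-values were given the Benjamini-Hochberg adjustment over all 8628 probe sets, and every adjusted p in the text comes from these limma fits. Arrays were paired because the labels give both to the same mouse. Over all probe sets, deviations from the group mean in mock and αCD3 arrays of a mouse correlated at 0.0965 in *Lck-Cre*, 0.160 in *Med23flox/flox* and 0.0701 in null mice. The description of 1 control αCD3 sample carries the identifier of another mouse's mock sample and was not used, since title and source agree. No control arrays held identical values. With 2 mice per genotype and no batch in the labels, the number of arrays limits the precision.

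Named genes were all those called, the 20 largest changes in each direction shared by 4 of 4 mice, up to 5 members of each of 32 gene lists, the members needed to show a list's spread, and cell type markers from 8 lists. The comparison, the lists and the members were chosen with earlier results of these data known, so list counts and medians are descriptions. Members with a mean signal under 100 in 1 treatment entered through the other, so the filter favoured members that changed. Percentages of all genes use 1 probe set per gene. Alternatives were other pseudocounts, filters, scalings and probe sets, a variance trend, the control mice alone, no pairing, 1 genotype alone and each mouse left out. Python 3.11.15 with numpy 2.4.6, pandas 2.3.3 and matplotlib 3.10.9 made the summaries and plots.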

Additional observations from a re-analysis of the deposited data

Results flagged for a closer look

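In 16 of 198 values examined over the 4 control mice, 1 mouse lay apart from the other 3 by more than the 95% limit of Dixon's test for 4 values (the gap to the nearest mouse over the whole range), which chance passes in about 1 in 20. The αCD3 array of *Med23flox/flox* 1 gave 2 of them, with a lower quartile of signal of 85.2 (51.3 to 54.1 in the others) and a mean correlation with other arrays of 0.928 (0.955 to 0.957).

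In log2 differences, *Med23flox/flox* 1 was below the others for *Xcl1* (1.06 against 2.65 to 2.81), *Il4* on 1 probe set (0.49 against 1.65 to 1.83), *Rps19* (-0.81 against -0.30 to -0.25), *Ddit3* (-0.53 against 0.02 to 0.04) and the median of respiratory chain genes (-0.14 against 0.00 to 0.03). *Med23flox/flox* 2 was above them for *Fos* (2.97 against 1.40 to 1.46), *Zfp36l1* (1.49 against 0.78 to 0.89), the median of cytokines and chemokines (1.16 against 0.61 to 0.67) and that of ion channels and calcium signalling (0.054 against -0.13 to -0.11). It was below them for *Tent5c* (-1.11 against -0.90 to -0.89) and *Birc3* (0.58 against 0.96 to 1.03). *Lck-Cre* 1 was below for *Irgm1* (0.42 against 1.07 to 1.17) and above for *Btg2* (0.71 against -0.41 to -0.24) and *Fosb* (0.14 against -0.45 to -0.36). *Tent5c* and *Xcl1* are the genes among these that passed the test, and both kept their direction without the mouse that lay apart. The part of the array of *Med23flox/flox* 1 in its values was not tested.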

How the results depend on the processing

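The 26 higher and 2 lower calls became 15 and 1 with a pseudocount of 20, 35 and 2 with 100, 13 and 0 without the signal filter, 38 and 1 at a signal of at least 200, 12 and 1 with quantile normalization, 60 and 5 with a variance trend and 14 and 0 with the control mice alone. Without the replicate block, that is without the pairing by mouse, they were 48 and 2, of which 25 were among the 28. Leaving out 1 mouse gave 3 to 14 higher and 0 lower, and either genotype alone 0 in both directions, with 2 control mice in each of those fits. In the other settings 11 of the 28 were called each time, and none of the 28 changed direction in any setting.

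Probe sets higher in every mouse by at least 0.5 (291) numbered 187 at a signal of at least 200, 353 to 476 with 1 mouse left out, 497 in *Lck-Cre* and 887 in *Med23flox/flox* mice alone. Those lower (102) numbered 61 with a pseudocount of 100, 57 at a signal of at least 200, 164 with quantile normalization, 199 to 219 with 1 mouse left out, and 403 and 452 in the 2 genotypes. Fewer mice make agreement in every mouse easier.

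List medians moved by more than their SD over mice as follows. In *Lck-Cre* mice alone they were 0.24 for immediate early genes, -0.11 for quiescence, -0.17 for ribosomal proteins, 0.22 for GPI-anchored antigens and -0.21 for ion channels. In *Med23flox/flox* mice alone they were 0.96 for cytokines, -0.12 for quiescence, 0.11 for proximal signalling, -0.012 for cytokine receptors, -0.10 for actin and adhesion, 0.0074 for GPI-anchored antigens and 0.17 for DNA repair. With quantile normalization they were 0.0053 for the TCR complex, -0.062 for V(D)J recombination, -0.0093 for ribosomal proteins and 0.26 for GPI-anchored antigens. Cytokines lay at 1.18 at a signal of at least 200, and cytokine receptors at 0.11 without the filter, 0.0055 with a 10% trimmed mean and 0.015 over every probe set. With 1 mouse left out GPI-anchored antigens lay between 0.069 and 0.15, NFAT, NF-κB and IRF factors between 0.17 and 0.31 and cytokine receptors between -0.020 and 0.12.

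Of the genes given a value, 27 changed sign in some setting, none of them called and 26 with mice on both sides of 0 to begin with. With quantile normalization *Rag1* became 0.022, *Cd3d* 0.045, *Cd3e* 0.031, *Bcl2l1* 0.018, *Btg2* 0.011, *Cd247* 0.016, *Junb* -0.0030, *Jund* 0.075, *Ncl* 0.044 and *Npm1* 0.013. With a 10% trimmed mean *Apaf1* became -0.016 and *Herpud1* -0.022. In *Lck-Cre* mice alone *Cd3e* became 0.048, *Bcl2l1* 0.11, *Btg2* 0.23, *Cd247* 0.17, *Ddit3* 0.029, *Herpud1* -0.23, *Jund* 0.11, *Lta* 0.22, *Mcl1* 0.036 and *Bcl2* -0.014. In *Med23flox/flox* mice alone *Klf2* became 0.36, *Apaf1* -0.18, *Atf4* -0.050, *Casp8* 0.35, *Fas* -0.013, *Il3* 0.10, *Jun* 0.26, *Junb* -0.11, *Ncl* 0.014, *Npm1* 0.023, *Ppp3ca* 0.066, *Ppp3cb* -0.10 and *Rela* -0.069. With 1 mouse left out the ranges were *Apaf1* -0.098 to 0.074, *Atf4* -0.028 to 0.13, *Bcl2* -0.041 to 0.25, *Bcl2l1* -0.058 to 0.030, *Btg2* -0.32 to 0.054, *Casp8* -0.28 to 0.088, *Cd247* -0.096 to 0.093, *Cd3e* -0.054 to 0.023, *Ctla4* -0.011 to 0.20, *Ddit3* -0.16 to 0.029, *Fas* -0.0094 to 0.090, *Herpud1* -0.15 to 0.14, *Il3* -0.21 to 0.23, *Jun* -0.53 to 0.26, *Junb* -0.15 to 0.38, *Jund* -0.082 to 0.040, *Lta* -0.12 to 0.26, *Ncl* -0.036 to 0.043, *Npm1* -0.086 to 0.024, *Ppp3ca* -0.16 to 0.034, *Ppp3cb* -0.035 to 0.17, *Rela* -0.057 to 0.16 and *Stat5b* -0.13 to 0.045. The cause of these shifts was not tested. Low signals limit the size of the dimmer changes, since the SD over mice rose from 0.14 at signals of at least 5000 to 0.57 at 100 to 200.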
